A study of Mus musculus with 4 samples.

Results

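The thyroid follicular cell genes are Tg, Tshr, Pax8, Foxe1, Hhex and Slc5a5, 6 genes looked up on 4 arrays of mouse embryonic trachea. Members were the probe sets that the platform annotation pairs with these symbols, with no filter on level. The lookup found 9 probe sets of 5 genes, out of 18193 genes on the array, and no probe set was paired with Foxe1, which was not analysed here. Each gene is led by the probe set that was highest in mean log2(signal + 16) over the 4 arrays, and the other 4 probe sets stand beside it.

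The study compared the trachea of wild-type mouse embryos with that of embryos labelled a1H knockout, with 2 samples per genotype, numbered 1 and 2. All embryos were at embryonic day 16 on a C57BL/6 background. The name a1H was read as the alpha-1H pore subunit of a T-type calcium channel, encoded by Cacna1h, and the comparison asks how tracheal transcription differs without it. The labels give neither the deleted part of the gene nor whether a sample was 1 embryo or a pool. The p-values weigh a genotype difference against the spread among these samples, moderated across all genes, and that spread may be technical.

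The thyroid lies against the upper trachea. Its follicular cells make thyroglobulin, take up iodide at their basal side, attach it to thyroglobulin and release thyroid hormone, all under control of thyrotropin from the pituitary. The gland arises from the floor of the pharynx, where Pax8, Hhex, Foxe1 and Nkx2-1 are expressed together in the thyroid bud. Each of these factors is also found elsewhere: Pax8 in kidney, Hhex in endothelium and liver, Foxe1 in the oesophagus, and Nkx2-1 in airway epithelium.

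RefSeq promoter sequences (GRCm38.p6) were at hand for 3 members, Pax8, Hhex and Slc5a5. They are shown for the regions before the starts of a pair of thyroid factors and of the iodide transporter, and the expression values were not tested against them. Each line gives the 250 bases before the annotated start, 5′ to 3′ on the gene's strand. Pax8 is at chr2:24475600-24475849 on the minus strand, Hhex at chr19:37434591-37434840 on the plus strand and Slc5a5 at chr8:70892758-70893007 on the minus strand. Capitals mark matches, on either strand, to the CCAAT box (CCAAT) and the GC box (GGGCGG).
Pax8: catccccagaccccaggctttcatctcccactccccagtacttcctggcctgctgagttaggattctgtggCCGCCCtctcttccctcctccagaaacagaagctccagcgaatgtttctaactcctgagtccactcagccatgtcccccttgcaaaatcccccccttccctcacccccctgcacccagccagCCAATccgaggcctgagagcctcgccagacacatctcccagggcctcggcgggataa
Hhex: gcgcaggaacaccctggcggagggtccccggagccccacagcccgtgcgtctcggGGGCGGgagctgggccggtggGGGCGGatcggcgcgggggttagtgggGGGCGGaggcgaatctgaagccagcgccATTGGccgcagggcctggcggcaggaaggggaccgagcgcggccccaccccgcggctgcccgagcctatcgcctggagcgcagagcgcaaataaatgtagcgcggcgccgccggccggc
Slc5a5: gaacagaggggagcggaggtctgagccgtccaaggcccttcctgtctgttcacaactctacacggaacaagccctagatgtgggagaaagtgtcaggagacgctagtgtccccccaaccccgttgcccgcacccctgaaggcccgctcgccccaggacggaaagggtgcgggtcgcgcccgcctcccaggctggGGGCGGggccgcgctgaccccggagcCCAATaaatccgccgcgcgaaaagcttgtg

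Each window held 1 CCAAT box. GC boxes numbered 3 in Hhex and 1 each in Pax8 and Slc5a5. Of 32851 promoter windows of this length, 33.8% held CCAAT and 32.7% held GGGCGG on either strand. The core TCAAG, as bound by NKX2-1, and the forkhead core TGTTTA were in none of the 3 windows, against 35.9% and 12% of all windows, and no marked matches overlapped. The windows were 60.4% (Pax8), 76% (Hhex) and 66.4% (Slc5a5) G or C, against a median of 52.4%. A match is a description of these letters and not a bound site.

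The arrays as a whole set the scale for the members. Array medians ran from 320 to 459, lowest on knockout replicate 2. The 9 spiked hybridisation control probe sets had geometric means of 6361 and 6258 in replicates numbered 1 but 14756 and 18565 in those numbered 2. Differences within each number are therefore given beside pooled ones. The brighter Cacna1h probe set, 1422710_a_at, gave 630 and 538 in wild-type samples against 981 and 631 in knockout-labelled ones. Its dim one, 1427607_at, read 99.7, 28.1, 79.2 and 60.3 in the same order. Neither was lower throughout, and with the deleted part unknown the genotype labels could not be checked. Of 11 tracheal markers such as Col2a1, Acan, Acta2 and Scgb1a1, 10 were at or above the median level of all probe sets, a signal of 397.

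No member passed the test between genotypes. In the limma fit over 18193 genes, 0 genes (0%) passed a threshold of 0.05 after Benjamini-Hochberg adjustment, where 0.886 was the smallest value. Before adjustment 849 genes, or 4.67%, had a p under 0.05, and 2 of the 5 members, Hhex and Tshr, were among them. With 2 samples on each side the smallest two-sided p of an exact permutation test is 0.333. As deposited, all 5 lead probe sets had lower means in knockout-labelled samples, whereas with quantile normalisation or median centring 4 of 5 did and Slc5a5 changed sign. Of all genes, 51.8% were lower as deposited, 42.2% after quantile normalisation and 28.4% after centring. The members' median log2 difference, knockout minus wild type, was -0.55, against -0.02 over all genes. Centring adds the same amount to every gene's pooled difference and gave -0.32, against 0.21 over all genes. As deposited, the members' median was -0.29 for replicate number 1 and -0.89 for replicate number 2, and -0.31 without knockout replicate 2. For 4 of 5 members every knockout-labelled array read below every wild-type array, which was so for 19.1% of all genes. Genes below the median level gave 27.1% and those at or above it 14.6%. The tracheal markers themselves were lower in 10 of 11 genes as deposited, 5 of them without overlap, with a median of -0.30, and in 7 of 11 after centring, with a median of -0.07. Of markers of the nearby thymus, all 9 measured thymocyte genes were higher in knockout-labelled samples under each scaling, 4 of them without overlap as deposited, against 16.8% of all genes. Their median was 1.03, with 2.50 and -0.06 within replicate numbers 1 and 2. Of 8 thymic epithelium genes 6 were higher as deposited, 5 without overlap, with a median of 1.17, or 1.37 and 0.76 within the numbers. None of these passed in limma, and their part in the members' values was not tested.

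**Figure D1:**
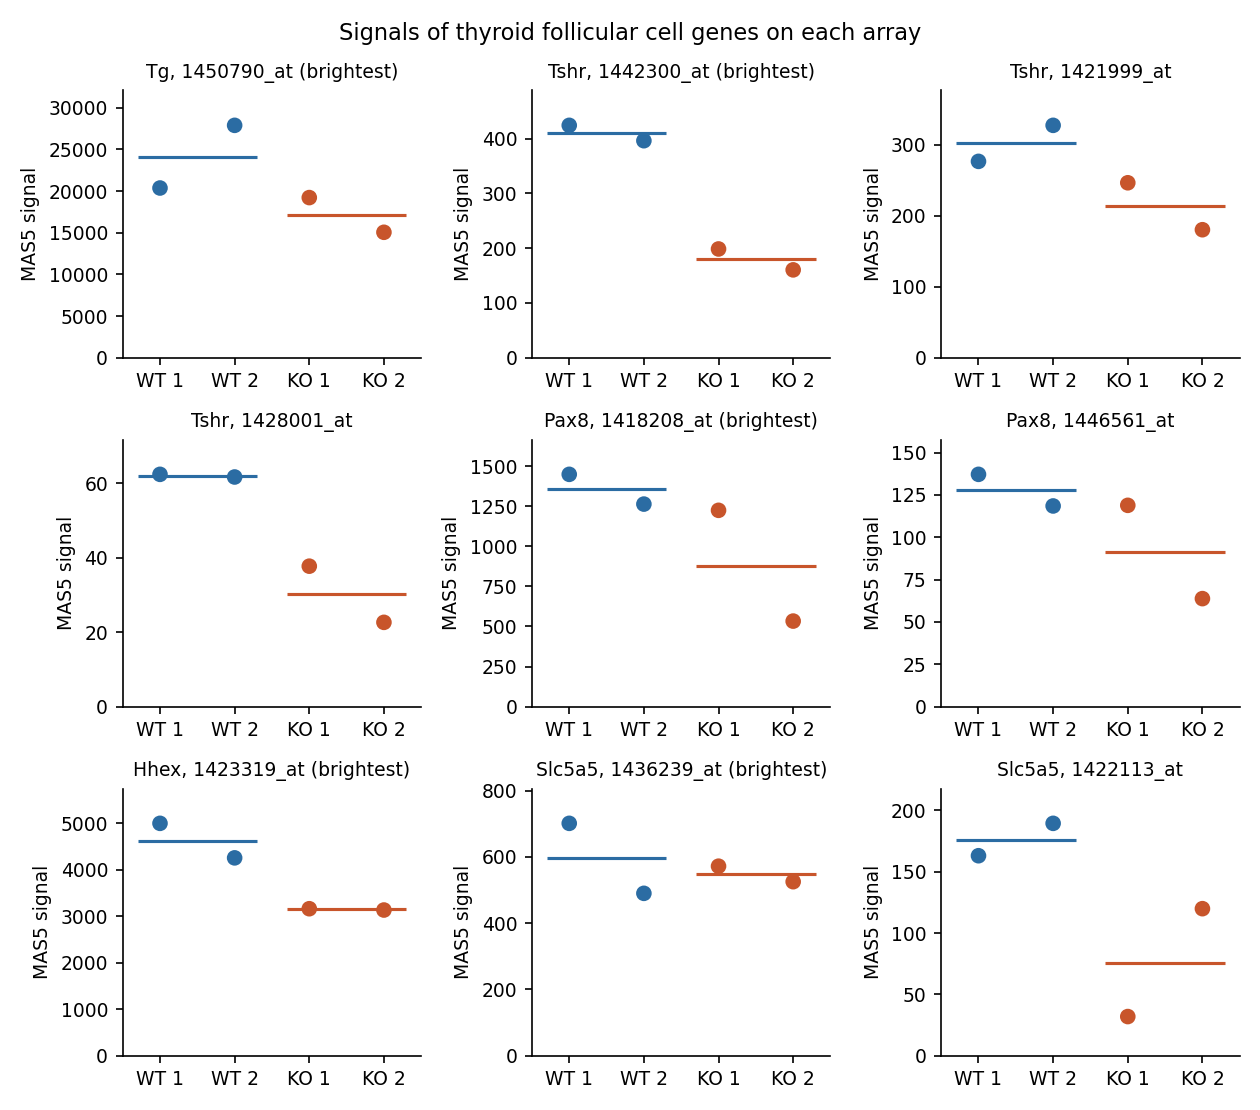
MAS5 signal (linear, from 0) of the 9 member probe sets on each array, with wild type (WT) in blue, labelled knockout (KO) in orange and lines for group means. In 7 of 9 panels, which repeat 5 genes, both knockout points lie below both wild-type points. By lead probe set this was so for 4 of 5 members, against 19.1% of all genes. In 7 panels the lowest point is knockout replicate 2, the array with the lowest median, at 320. The share of all genes lowest on that array was not computed.

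Tg encodes thyroglobulin, the protein on which thyroid hormone is built and the most specific marker of follicular cells on this list. Its single probe set, 1450790_at, gave 20367 and 27888 in wild-type samples against 19217 and 15050 in knockout-labelled ones. It was far above the median level on every array, so thyroglobulin RNA was measured in all 4 samples labelled trachea. The groups did not overlap, but wild-type replicate 1 and knockout replicate 1 lay close together. Group means were 24128 ± 5319 and 17134 ± 2946 (SD, n = 2 each). In limma the log2 difference was -0.49 (SE 0.27, adjusted p = 0.886). The difference was -0.08 for replicate number 1 and -0.89 for replicate number 2. It was -0.26 without wild-type replicate 2, and -0.25 after centring arrays on their median, where the groups overlapped. Over all genes the median difference was 0.21 after centring, against -0.02 as deposited. In whole-tissue RNA, fewer follicular cells in a sample and less Tg RNA per cell cannot be told apart.

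Tshr encodes the thyrotropin receptor of the follicular cell. Its lead probe set, 1442300_at, gave 424 and 396 in wild-type samples against 198 and 160 in knockout-labelled ones. Replicates lay close together and the groups were far apart. The means were 410 ± 19.8 and 179 ± 27.0 (SD, n = 2), which is a log2 difference of -1.13 (SE 0.38, unadjusted p = 0.022, limma adjusted p = 0.886). Of all genes, 2.52% had a difference this low or lower. It was -1.04 and -1.22 within replicate numbers 1 and 2.

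The other Tshr probe sets were also lower in knockout-labelled samples as deposited, by smaller amounts. Probe set 1421999_at read 276 and 327 against 246 and 180, a log2 difference of -0.48, with -0.16 and -0.81 within the replicate numbers. Probe set 1428001_at read 62.4 and 61.7 against 37.7 and 22.6, a log2 difference of -0.78. The groups did not overlap on either one, and neither passed over all probe sets, with limma adjusted p-values of 0.828 and 0.823. All 3 Tshr probe sets had means below the median level. As deposited, the 6499 genes below that level had a median log2 difference of -0.21, against 0.04 for the 11694 others. It was -0.25 and -0.16 within replicate numbers 1 and 2. With 2 arrays per genotype, a shift of dim signals by array and one by genotype cannot be told apart. Photoreceptor genes, which are not known in these tissues, read at most 213 on any array, with the brightest, Sag, at 207 and 211 against 164 and 202. As deposited, 9 of their 11 lead probe sets were lower in knockout-labelled samples, against 51.8% of all genes. After centring 5 were lower and after quantile normalisation 4, against 28.4% and 42.2% of all genes. The lead Tshr probe set had -0.90 after centring and -0.86 after quantile normalisation, without overlap under either. The medians over all genes were 0.21 and 0.07. The part of the shift of dim signals in the Tshr values was not tested.

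Slc5a5 encodes the sodium-iodide symporter, which brings iodide into the follicular cell. Its lead probe set, 1436239_at, gave 701 and 490 in wild-type samples against 572 and 525 in knockout-labelled ones. The wild-type arrays enclosed both knockout-labelled arrays. The means were 595 ± 149 and 548 ± 33.1 (SD, n = 2), which is a log2 difference of -0.09 with an unadjusted 95% interval from -0.87 to 0.68 and an adjusted p of 0.970 in limma. Within replicate numbers 1 and 2 it was -0.29 and 0.10 as deposited, opposite in sign. Against medians of 0.07 and 0.21 over all genes, the pooled difference was 0.08 after quantile normalisation and 0.14 after centring. Its sign therefore also depended on scaling. With both probe sets averaged it was -0.67. The dim probe set, 1422113_at, gave 163 and 189 in wild-type samples against 31.9 and 120 in knockout-labelled ones. Its groups did not overlap, its log2 difference was -1.25 (SE 0.62), and its adjusted p over all probe sets was 0.823 in limma. The probe sets of this gene therefore disagreed in size, with -1.90 and -0.60 on the dim one within replicate numbers 1 and 2.

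Pax8 encodes the paired-domain transcription factor that the follicular lineage requires. Its lead probe set, 1418208_at, gave 1449 and 1263 in wild-type samples against 1224 and 534 in knockout-labelled ones. Knockout replicate 2 stood apart, while replicate 1 of that genotype was just under the lower wild-type array. The means were 1356 ± 131 and 879 ± 488 (SD, n = 2). In limma the log2 difference was -0.73 (SE 0.40, adjusted p = 0.886). It was -0.24 and -1.22 within the replicate numbers. Without knockout replicate 2 it was -0.14, and without knockout replicate 1 it was -1.32. The dim probe set, 1446561_at, read 137 and 118 against 119 and 63.8, with overlapping groups and the same array lowest. Pax8 is also expressed in kidney. Of the 4 kidney markers measured, Umod, Nphs1 and Slc12a1 read at most 76.9 on any array, while Wt1, also found in mesothelium, read 492 and 313 against 877 and 206.

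Hhex encodes a homeodomain factor of the thyroid bud, the endothelium and the foregut. Its single probe set, 1423319_at, gave 4999 and 4256 in wild-type samples against 3162 and 3134 in knockout-labelled ones. The knockout-labelled arrays were nearly equal and both lay below the wild-type arrays. The means were 4628 ± 525 and 3148 ± 19.9 (SD, n = 2), which is a log2 difference of -0.55 (SE 0.18). The unadjusted p was 0.019 and the adjusted p 0.886 in limma, and the unadjusted 95% interval ran from -0.97 to -0.13. Of all genes, 12% had a difference this low or lower. The differences within the replicate numbers were -0.66 and -0.44. The difference was -0.32 after centring, against a median of 0.21 over all genes, with the groups still apart. Hhex is also expressed in endothelium and liver. Of 8 genes listed for these, 6 were lower as deposited and 3 after centring, against 51.8% and 28.4% of all genes. None passed in limma. Those lower without overlap numbered 2 as deposited, against 19.1% of all genes, and 0 after centring. The share of all genes lower without overlap was not computed after centring. Tek, an endothelial receptor, gave 3630 and 4532 against 4383 and 3462, and Cdh5, the endothelial cadherin, gave 1257 and 1218 against 1184 and 1019. The summed signal of the list ran from 9705 on wild-type replicate 1 to 52056 on wild-type replicate 2 and was 11092 and 38713 in knockout-labelled samples. Its liver genes Alb, Afp, Apoa1 and Ttr spanned 2.85 to 7.63 on the log2 scale from lowest to highest array. The endothelial genes Pecam1, Cdh5, Tek and Emcn spanned 0.20 to 0.44. The part of endothelial or liver cells in the Hhex values was not tested.

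**Figure D2:**
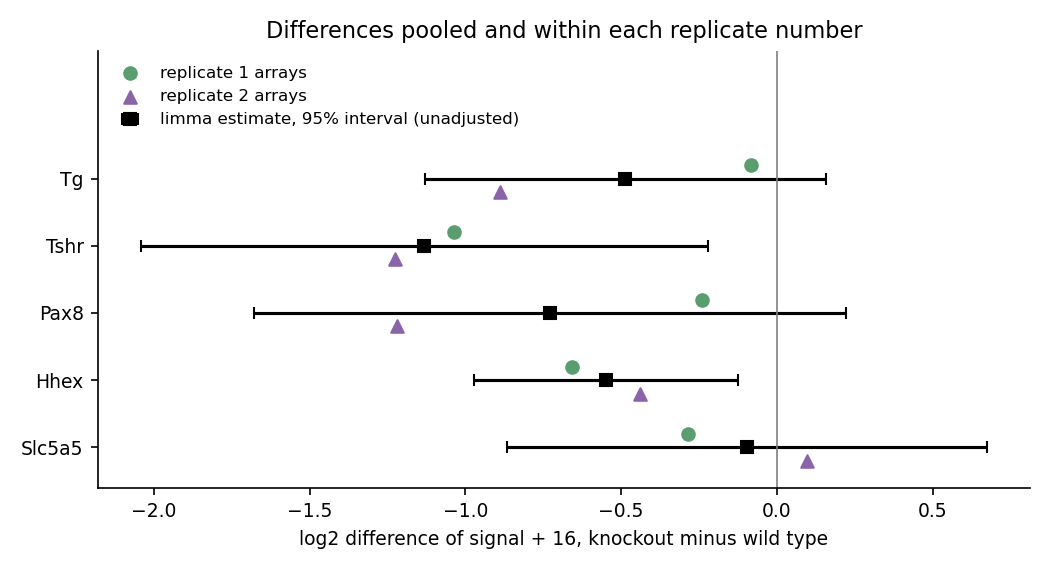
Log2 difference in signal + 16, knockout minus wild type, for the lead probe set of each member: squares with bars are the limma estimate and its unadjusted 95% interval, circles the replicate 1 arrays and triangles the replicate 2 arrays. Tshr and Hhex have like values within both numbers, and Tg and Pax8 differ mainly between the replicate 2 arrays. The sign of Slc5a5 differed between the numbers and depended on scaling.

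Of the 5 lead probe sets, 4 were lower in knockout-labelled samples within both replicate numbers, which held for 31% of all genes. The profiles still differed among members. The root mean square difference between array-centred log2 profiles was lowest between Hhex and Slc5a5, at 0.25, and between Tg and Hhex, at 0.27. It was highest between Tshr and Slc5a5, at 0.54. As a sign of RNA quality, the actin 3' to 5' signal ratio was 1.69 and 1.66 for wild-type arrays against 1.90 and 1.97 for knockout-labelled ones, without overlap. The same ratio for Gapdh was 1.26 and 1.40 against 1.36 and 1.61, with overlap. The part of RNA quality in the members' values was not tested.

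Genes that act beside the members in hormone synthesis were a list of 15, of which 12 were measured. None passed in limma, none had an unadjusted p under 0.05, and 3 were lower without overlap, against 19.1% of all genes. The median log2 difference was -0.35 as deposited and -0.12 after centring, against -0.02 and 0.21 over all genes. As deposited 8 of 12 were lower, against 51.8% of all genes. After either rescaling 7 were, against 42.2% with quantile normalisation and 28.4% with centring. Iyd, the deiodinase that recovers iodide from iodotyrosines, gave 5854 and 5702 in wild-type samples against 4168 and 4704 in knockout-labelled ones. Its log2 difference was -0.38 (SE 0.17, limma adjusted p = 0.886), without overlap of the groups.

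Other genes of this list overlapped between genotypes in most cases. Cdh16, a cadherin of thyroid and kidney, read 1202 and 768 against 979 and 523, and Dio1, a deiodinase of thyroid hormone, read 438 and 350 against 425 and 139. Ano1, a chloride channel also found in airway, read 6732 and 9382 against 7216 and 5564, in the same array order as Tg apart from the replicate 1 arrays. Slc5a8, a monocarboxylate transporter, read 591 and 1684 against 601 and 597, so wild-type replicate 2 alone was high. Lrp2, the endocytic receptor megalin, and Duoxa2, the maturation factor of dual oxidase, were lower without overlap, with log2 differences of -0.96 and -0.53. Both were dim, with highest signals of 381 and 176. Of the other Lrp2 probe sets, 1427133_s_at had -2.23 and 1445901_at, which read at most 67.8, had 0.31. Duox1, an oxidase that supplies hydrogen peroxide, and its maturation factor Duoxa1 had -0.06 and 0.21. Kcnq1 and Kcne2, the subunits of a potassium channel that iodide uptake needs, had 0.41 and 0.04, and Slc26a4, the anion exchanger pendrin, read at most 103.

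Transcription factors and signals of thyroid development were measured in 9 of 9 genes, and none passed in limma. Of these 7 were lower as deposited, 6 after quantile normalisation and 3 after centring, against 51.8%, 42.2% and 28.4% of all genes. The median of -0.19 became 0.04 after centring, where that of all genes was 0.21. Nkx2-1, the homeodomain factor shared by thyroid and airway epithelium, gave 337 and 216 in wild-type samples against 145 and 145 in knockout-labelled ones. The groups did not overlap, and the log2 difference was -0.83 (SE 0.43). Its signals lay below the median level of 397 on all 4 arrays, where photoreceptor genes read up to 213. The gene is also on the list of 11 tracheal markers. Glis3, a zinc finger factor of the follicular cell, read 2392 and 2205 against 1856 and 1741, a log2 difference of -0.35 without overlap. Bcl2, a survival factor, had -0.19 without overlap. Shh, a ligand of the foregut epithelium, had -0.50, and Isl1, a factor of the surrounding mesoderm, had -0.20. Fgfr2, an FGF receptor, and Hes1, a Notch target, had -0.09 and -0.07. Tbx1, a pharyngeal factor, and Fgf10, a mesenchymal growth factor, had 0.12 and 0.16.

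Genes of thyrotropin signalling and of the response to thyroid hormone showed no common direction. Of 12 listed, 11 were measured, all but Dio3. As deposited 6 were lower, 4 after quantile normalisation and 3 after centring, against 51.8%, 42.2% and 28.4% of all genes. The medians were -0.06, 0.11 and 0.18, against -0.02, 0.07 and 0.21 over all genes, and none passed in limma. Klf9, a factor induced by thyroid hormone, was the 1 gene of this list with an unadjusted p under 0.05. It gave 6770 and 9293 in wild-type samples against 6086 and 4035 in knockout-labelled ones, a log2 difference of -0.68, with -0.15 and -1.20 within the replicate numbers. Thrsp, another hormone-responsive gene, had -0.84 and was high on wild-type replicate 2, at 4776. Pde4d, which degrades cyclic AMP, had -0.32 without overlap, and Creb1, a factor that answers to cyclic AMP, had -0.06. Their other probe sets differed: those of Creb1 had -0.47 to 0.24, with -0.47 on the brightest of these. The other one of Pde4d, which read at most 82.0, had 0.27.

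The receptors and deiodinases of target tissues gave smaller or opposite values. Thra, the receptor isoform gene found in most tissues, read 4642 and 5970 against 4959 and 6855, a log2 difference of 0.15. Thrb, the other receptor gene, was dim at 33.6 to 68.0 and had 0.41, higher without overlap. Dio2, an activating deiodinase, had 0.17, and Gnas, which encodes the G protein subunit coupled to the thyrotropin receptor, had 0.28. Slc16a10 and Slco1c1, carriers of thyroid hormone, had 0.37 and -0.22, and Hr, a corepressor of the hormone receptor, had -0.13. Probe sets disagreed for several of these genes. Other Thra probe sets had -0.32 and -0.22, those of Dio2 had -0.34 and -0.57, and 4 of Gnas had -0.03 to -1.02.

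**Figure D3:**
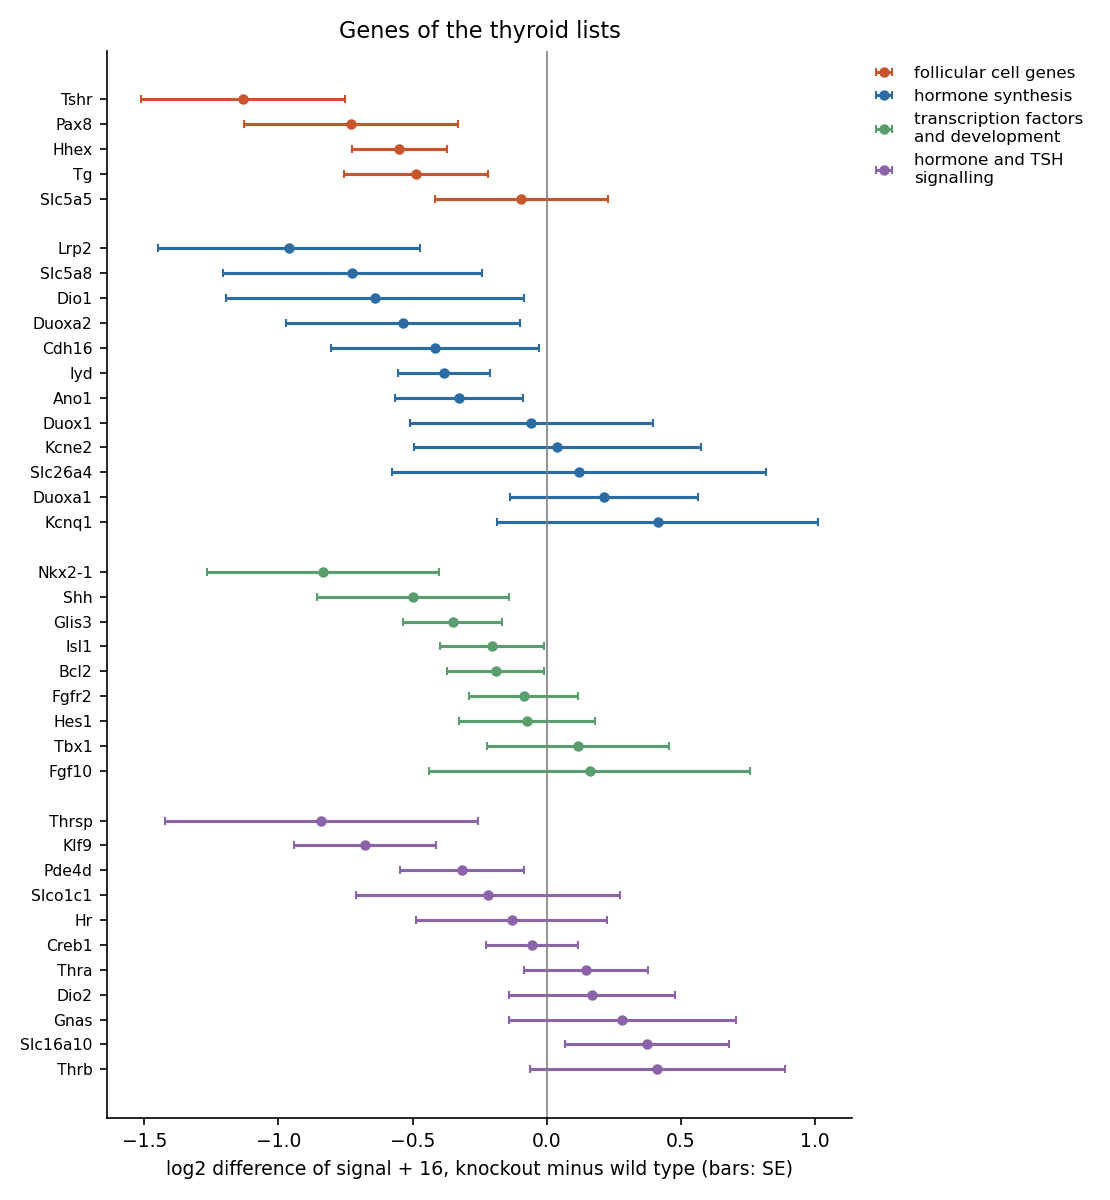
Log2 difference in signal + 16, knockout minus wild type, with moderated SE bars, for the 5 members and the 3 thyroid lists, 1 point per gene. Most of the synthesis and development genes lie left of 0 as deposited, against 51.8% of all genes. Fewer do after centring, 7 of 12 and 3 of 9, against 28.4% of all genes. None passed the test.

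The thymus, parathyroids and salivary glands also lie near the trachea, and their markers were set beside the members for spread over arrays. From the lowest to the highest array the 5 lead probe sets spanned 1.42-fold (Slc5a5), 1.59-fold (Hhex), 1.85-fold (Tg), 2.50-fold (Tshr) and 2.66-fold (Pax8), on the scale of signal + 16. Their median range was 0.89 on the log2 scale, against 0.65 over all genes and 0.52 over those at or above the median level. After centring it was 0.59, against 0.78 and 0.68. Parathyroid and C-cell genes had a median range of 0.89, and Pth, parathyroid hormone, gave 15566 and 22213 in wild-type samples against 13924 and 19619 in knockout-labelled ones. Tracheal genes had 0.91, and the brightest, the cartilage collagen gene Col9a1, gave 21586 and 23762 against 16923 and 20055. The ranges were 1.72 for thymic epithelium, 2.50 for thymocytes and 4.52 for salivary gland. The brightest gene of the thymocyte list, the recombinase gene Rag1, gave 1103 and 4276 in wild-type samples against 6830 and 2430 in knockout-labelled ones. By mean log2 value the brightest salivary gene, Dcpp3, gave 2241 and 20999 against 2634 and 5329, and the brightest on the thymic epithelium list, Hoxa3, a pharyngeal patterning factor, gave 7660 and 6126 against 5881 and 4163, opposite in direction to 6 of the 8 genes of that list. Prss16, a protease of thymic cortical epithelium, gave 615 and 1604 against 6554 and 2727. In the oesophageal list, with a median range of 0.66, the basal keratin gene Krt15 gave 12577 and 18887 against 11297 and 18918. Smgc, a salivary gland mucin, read 3.74 on wild-type replicate 1 and 28112 on wild-type replicate 2, and Psmb11, a proteasome subunit of thymic cortex, gave 173 and 390 in wild-type samples against 1792 and 774 in knockout-labelled ones. Smgc, Psmb11, Prss16, Cdh5, Umod, Nphs1 and Slc12a1 were chosen after their values were seen. These ranges are descriptions, and their difference was not tested.

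**Figure D4:**
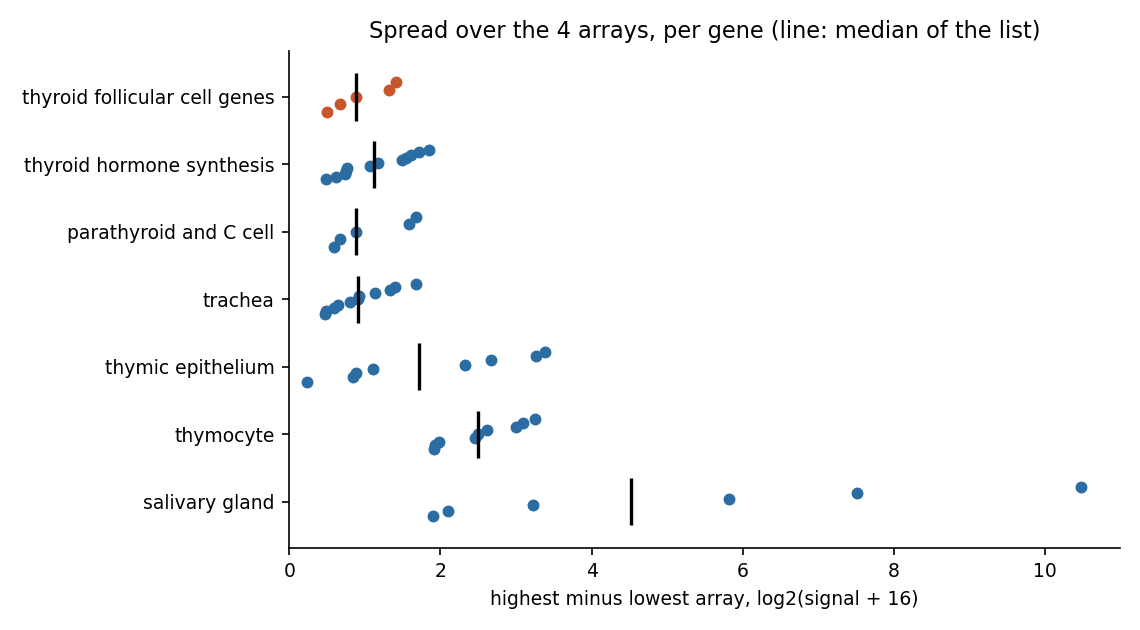
Highest minus lowest array in log2(signal + 16), 1 point per gene, for the members (orange) and lists of neighbouring tissues (blue), with a line at each list's median. The members lie between 0.50 and 1.41, and salivary gland genes between 1.90 and 10.5.

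The genes whose array-centred profile lay nearest to a member's were found among 11694 genes at or above the median level, over 4 arrays. Nearest to Tg was Agr2, a disulfide isomerase of mucous epithelia, with signals of 16003 and 22429 against 14901 and 12320 and a root mean square log2 difference of 0.03. Mal, Gpm6a, Samd5 and Krt13, a keratin of stratified epithelium, followed at 0.04 to 0.05. Nearest to Hhex were Upk3bl at 0.01 and Chsy3, Saxo2, Hs3st3a1 and Csmd2 at 0.04. Nearest to Pax8 were H3f3b, Kcna2, Nbeal1, Sntb2 and Gm20559, at 0.05 to 0.06, and nearest to Slc5a5 were Agpat4, Pifo, Rab10os, Nlgn2 and Cemip2, at 0.02. With 4 arrays such likeness is a description only, and of the 4 members searched none was among the 5 nearest genes of another.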

How the data were processed

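Total RNA of 4 samples of embryonic trachea, 2 per genotype, was measured on 1 Affymetrix array each, after amplification to cDNA and biotin labelling per the labels' protocols. The deposited intensity values are linear MAS5 signals, 1 for each probe set, as named per the submitters' processing notes. Settings of MAS5 are not given in the sources that were used. The mean after trimming 2% at each end was 1500 on every array, while the medians differed. Dim MAS5 signals are noisy, and cDNA amplification can favour 3' ends.

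Probe sets were named through platform annotation and gene identifiers in a RefSeq table of GRCm38.p6, and 34945 had exactly 1 gene. The brightest probe set of each of 18193 genes, by mean log2(signal + 16), was fitted with limma 3.58.1 in R 4.3.3. The fit had genotype as its single term, a trend on intensity and no level filter. P-values were adjusted over all genes by the Benjamini-Hochberg method at a threshold of 0.05. Fold changes on this log2 scale understate those of dim genes. The fit was checked on simulated data.

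The members and lists were chosen with earlier results of these data known. All members were named whatever their values, as were all measured genes of 3 thyroid lists and the brightest genes of the other lists. The 5 genes nearest in profile to each member above the median level were also named. Alternatives were the pseudocount (1 or 64), level filters, quantile normalisation, median centring, averaging of a gene's probe sets, no trend, weighting of arrays, a block for the replicate number, and leaving out each array. A separate fit of all probe sets was added after the data were seen. Figures were drawn with matplotlib 3.10.9.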

Additional observations from a re-analysis of the deposited data

How the results depend on the processing

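No member passed under any alternative run, with limma adjusted p-values of 0.079 or above, and Tg, Tshr, Pax8 and Hhex kept a negative sign in every fit that included them. Slc5a5 changed sign with quantile normalisation (0.077) and centring (0.14), and ranged from -0.35 to 0.16 as arrays were left out in turn. With all probe sets of a gene averaged, Slc5a5 had -0.67 and 5 of 5 members did not overlap. The share of all genes without overlap was not computed for averaged probe sets. With arrays left out in turn, the median over members ranged from -0.66 to -0.31. In those fits the lone sample of a group is assumed to vary like the other group. Members without overlap numbered 2 of the 2 left above the 75th percentile of level, since fewer were included. The share of all genes lower without overlap was not computed at that level. It was 14.6% for genes at or above the median level. The members' median range across arrays was 0.59 after centring, which raised the median log2 difference of all genes from -0.02 to 0.21. Genes called over all ranged from 0 to 136 with arrays left out: 136 without knockout replicate 1 and 3 without knockout replicate 2. With the replicate number as a block, 0 genes and 0 members passed, and Tg, Hhex, Pax8 and Tshr had an adjusted p of 0.548. Deviations of same-numbered samples correlated at 0.15 over all genes and 0.32 over those at or above the median level. The labels do not say that the numbers pair samples, and with 2 pairs this was not settled. Precision is limited by the 2 arrays of each group, and signals without detection calls limit what Tshr and the dim probe sets of Slc5a5 and Pax8 can show.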
